A study of Mus musculus with 2 samples.

Results

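The transcription factors Eomes, T-bet (Tbx21), Zeb1, Zeb2, Hobit (Zfp683), Blimp1 (Prdm1) and Bhlhe40 were examined in DX5- and DX5+ natural killer (NK) cells of mouse liver. They were chosen by name, as the T-box factors and the zinc finger and basic helix-loop-helix factors tied to NK cell maturation and tissue residency. The choice was made with earlier results of these data known. All probe sets annotated to exactly 1 of these 7 genes were taken. They came to 14 probe sets of 45101 on the array, which measured 6 of 18194 named genes; for Zfp683 the annotation listed no probe set, and it was not analysed here.

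Liver cells of untreated (naive) wild-type B6 mice were sorted by flow cytometry. Both populations were NK1.1+ and CD3-; one was DX5- and the other DX5+, with 1 array for each. DX5 is an antibody to integrin alpha 2 (Itga2), and NK1.1 is a surface receptor of NK cells in this strain. The mice's age and sex, and how many were used for each array, were not stated in the sources used here. With 1 array per population no ratio has a spread between samples, nothing was tested, and every fold describes these arrays only.

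Eomes and T-bet are T-box DNA-binding proteins that together specify and mature NK cells. In mouse liver, DX5- CD49a+ cells are known as resident cells, also called type 1 innate lymphoid cells, that need T-bet and hold little Eomes, whereas DX5+ cells are conventional circulating NK cells that carry both proteins. Zeb2 acts with T-bet in the last steps of NK and CD8 T cell maturation, and its paralogue Zeb1 binds the same E-box elements. Hobit and Blimp1 are related zinc finger repressors of resident lymphocytes, and Bhlhe40 is a basic helix-loop-helix repressor of activated and resident lymphocytes and of the circadian clock.

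Intensities are linear signal units made with MAS5, and a log2 ratio is always DX5- minus DX5+. The limit for detection was, on each array, the 95th percentile over 149 probe sets of sensory receptor, hair keratin-associated, lens crystallin and opsin genes. It came to 76.1 units on the DX5- array, against 82.7 on the DX5+ array. The median intensity was 70.3 on the DX5- array, against 78.0 on the DX5+ array, and the 3' to 5' ratio of the actin control was 1.73 on the DX5- array, against 1.62 on the DX5+ array. All 18 spike-in control probe sets read lower on the DX5- array (median log2 ratio -0.22). A gene or probe set is called higher or lower below where its fold between the arrays reached 2. Of 10640 detected genes, 400 were called higher in DX5- cells and 602 lower, so that 39.9% of the called genes were higher. The share higher was 56.7% with median centring (575 higher, 439 lower) and 64.0% with spike-in scaling (698 higher, 393 lower). The median log2 ratio of genes above both limits was 0.14 with median centring and 0.20 with spike-in scaling, against -0.015 as deposited.

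Genes of NK cells were detected in both populations. Of 12 NK cell genes with a probe set 12 were above the limit on both arrays, among them Ncr1, the NKp46 receptor gene, which read 2390 on the DX5- array, against 1788 on the DX5+ array. Of these 12 genes 1 was called, Prf1 (perforin), 2.89-fold lower in DX5- cells; with spike-in scaling 2 more were called, both higher. Itga2 read 29.0 on the DX5- array, below the limit, and 105 on the DX5+ array. Of 9 markers of liver-resident NK cells 8 were called higher in DX5- cells, and Itga1 (CD49a) read 999 on the DX5- array, against 44.5, below the limit, on the DX5+ array. Of 4 detected hepatocyte genes 1 was called lower in DX5- cells (0 with spike-in scaling), as was 1 of 5 detected endothelial genes.

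The 6 measured factors did not move as a block. Eomes and Zeb2 were called lower in DX5- cells in every one of their probe sets. Zeb1 read higher in all 3 detected probe sets, but only 1 of these was called. Tbx21, Prdm1 and Bhlhe40 lay within 2-fold, as did Zeb1 by its brightest probe set. With 1 probe set per gene, the one with the highest mean log2 intensity, 2 of 6 genes were called lower and 0 higher; among all detected genes 5.66% were called lower and 3.76% higher. Of the 13 detected probe sets 7 were called lower and 1 higher, where 5.37% of all named and detected probe sets were called lower and 3.6% higher. The 7 lower probe sets belong to 2 genes, so they are not 7 separate observations. Because the factors were chosen with earlier results of these data known, the shares beside them serve as description only.

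**Figure D1:**
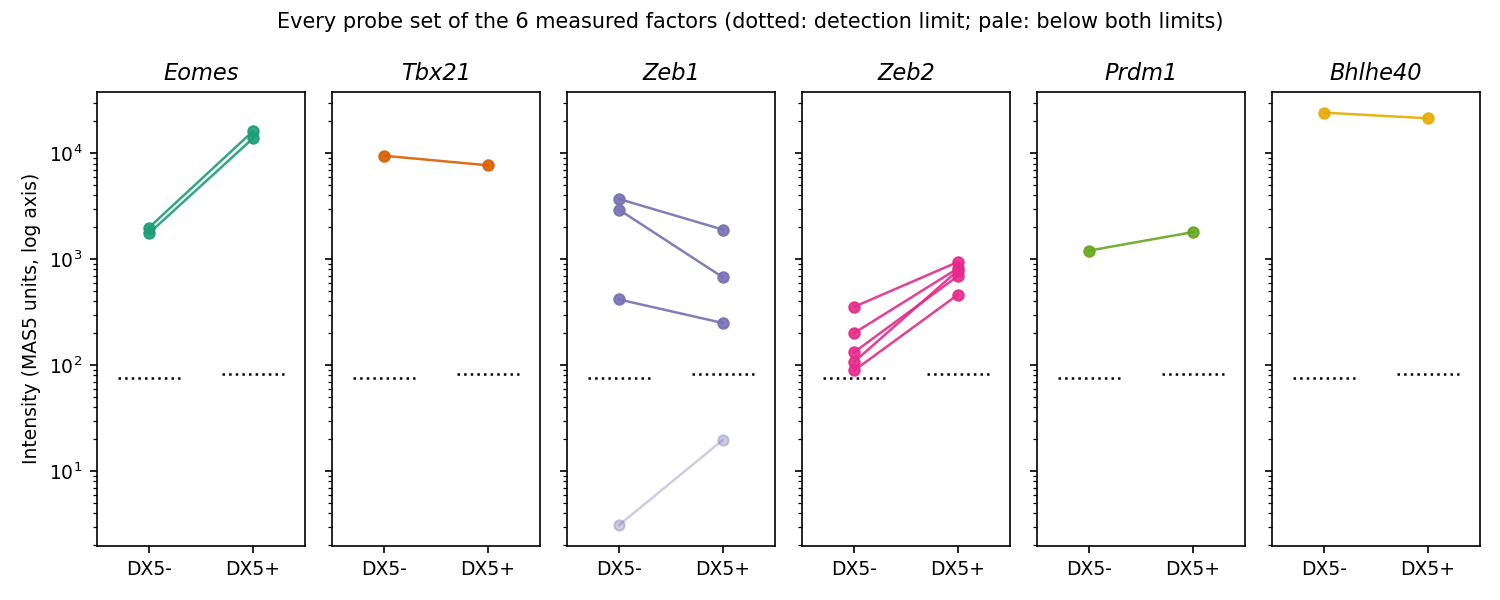
Intensity of every probe set of the 6 measured factors on the DX5- array (left in each panel) and the DX5+ array (right), on a log axis, with a line joining the values of 1 probe set and dotted lines at the detection limits. Both Eomes lines and all 5 Zeb2 lines are lower on the DX5- side, the detected Zeb1 lines are higher there, and 1 Zeb1 probe set (pale) is below both limits.

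Eomes had the largest difference of the 6 genes. Its probe set 1435172_at read 1991 on the DX5- array, against 16107 on the DX5+ array, 8.09-fold lower in DX5- cells. Its other probe set, 1426001_at, read 1758.5 on the DX5- array, against 13800.0 on the DX5+ array, 7.85-fold lower. The log2 ratios were -3.02 and -2.97, an SD of 0.031 between them. Over 1097 genes of like brightness the pooled SD between probe sets of a gene was 0.24, a measure of probe noise that holds no difference between cell preparations. Eomes was still well measured in DX5- cells, at 26.2 and 23.1 times the limit of that array. A bulk array cannot tell fewer Eomes-positive cells from less Eomes RNA per cell, here or for the other factors.

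Of the 10640 detected genes 17, Eomes included, had a ratio as low as that of Eomes. At least 4-fold lower were 94 genes (0.883%). For the 655 genes above the limit on the DX5+ array only, the ratio is a bound, so both counts are minimums. The genes most like Eomes, by the distance between pairs of log2 intensities over these 2 arrays, were Myb (a transcription factor, distance 0.44), Scd2 (a fatty acid desaturase, 0.61) and Klra8 (the activating receptor Ly49H, 0.73). Myb read 1469 on the DX5- array, against 15442 on the DX5+ array. No gene was closer than 0.44, whereas each of the other 5 factors had a neighbour within 0.057. These distances rest on the same intensities as the ratios, so they are not a separate result.

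Tbx21 lay within 2-fold in the populations. Its single probe set, 1449361_at, read 9474.5 on the DX5- array, against 7704 on the DX5+ array, 1.23-fold higher in DX5- cells. That log2 ratio, 0.30, was larger than the 0.24 pooled SD between probe sets of a gene among genes of like brightness, and smaller than the 0.34 over all 4389 genes with several such probe sets. Neither SD holds any difference between cell preparations or arrays, so they cannot tell whether this ratio departs from 0. The T-box factors thus differed from each other in log2 ratio by -3.31 (Eomes minus Tbx21), or 9.95-fold, a quantity in which any single scaling factor of the arrays cancels; with quantile normalization it was -3.25. Ubl3, Ngdn and Coro1a, the last an actin-binding protein of leukocytes, had the intensities most like those of Tbx21. Of 12 other T-box genes on the array 10 were below both limits. Tbx6 read 139.5 on the DX5- array, against 164 on the DX5+ array, and Tbx19 read 107 on the DX5- array, against 60.9, below the limit, on the DX5+ array.

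The 250 bases before the annotated starts of the T-box factors, from RefSeq on GRCm38.p6, are shown because these related genes had such different ratios. They were searched on both strands for the T-box element AGGTGTGA and its core GGTGTGA, the ZEB E-boxes CAGGTA and CAGGTG, the Bhlhe40 E-box CACGTG and the Blimp1 core GTGAAAG. The core lies within the T-box element, so these matches overlap. Capitals mark matches.
Eomes (chr9:118477939-118478188, plus strand): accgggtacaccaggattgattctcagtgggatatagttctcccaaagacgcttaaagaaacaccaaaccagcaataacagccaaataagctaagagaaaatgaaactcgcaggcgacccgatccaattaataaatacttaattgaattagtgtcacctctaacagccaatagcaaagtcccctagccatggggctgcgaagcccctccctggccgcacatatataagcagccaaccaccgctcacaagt
Tbx21 (chr11:97115332-97115581, minus strand): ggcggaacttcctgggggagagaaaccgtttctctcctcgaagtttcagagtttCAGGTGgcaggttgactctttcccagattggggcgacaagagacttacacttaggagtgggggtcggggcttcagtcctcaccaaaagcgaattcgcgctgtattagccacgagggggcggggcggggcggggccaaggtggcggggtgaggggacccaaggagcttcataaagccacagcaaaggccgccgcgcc
The Eomes window held none of these letters, and the Tbx21 window held CAGGTG once, starting 196 bases before the start. The window of Prdm1, not shown, held CAGGTG once, starting 87 bases before its start. Of 32851 windows of this length 17.2% held CAGGTG, 10% CAGGTA, 1.12% AGGTGTGA, 3.33% GGTGTGA, 6.02% CACGTG and 3.57% GTGAAAG.

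**Figure D2:**
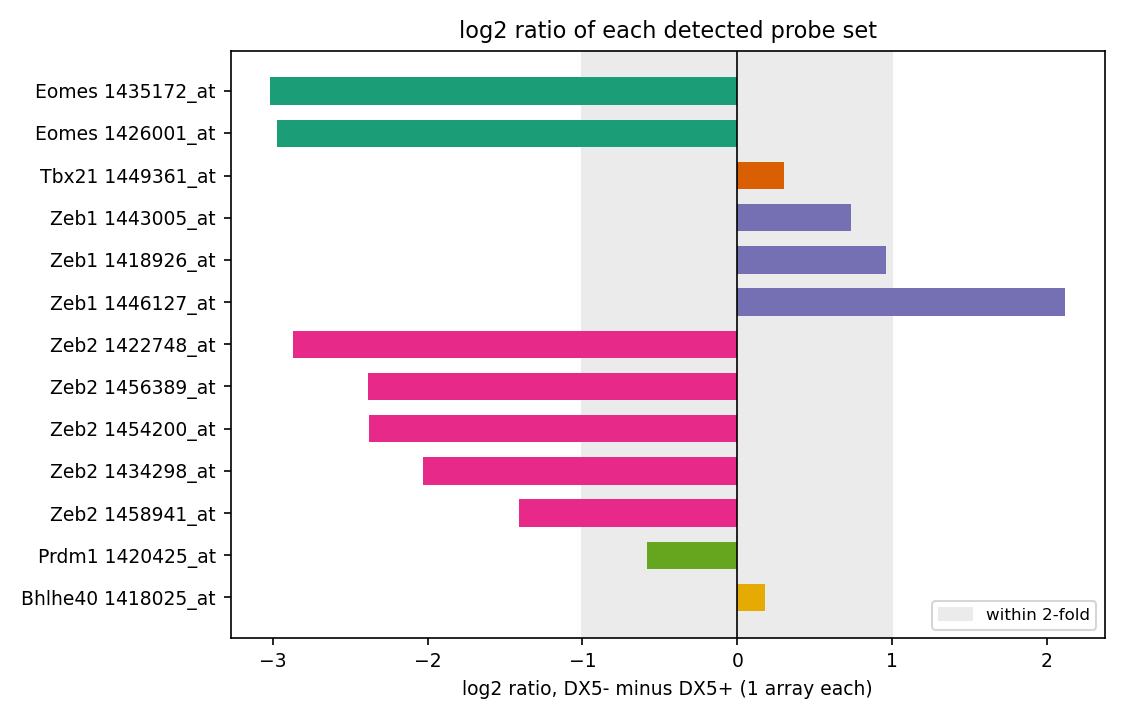
log2 ratio (DX5- minus DX5+, 1 array each) of the 13 detected probe sets of the 6 factors, as bars from 0, with the range within 2-fold in grey. The Eomes bars end at -3.02 and -2.97, the Zeb2 bars run from -2.87 to -1.41, and the Zeb1 bars run from 0.74 to 2.12.

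Zeb2, the late maturation factor, was lower in DX5- cells in 5 of 5 probe sets. Probe set 1422748_at read 107 on the DX5- array, against 783 on the DX5+ array, 7.29-fold lower. Probe set 1456389_at read 132.5 on the DX5- array, against 693 on the DX5+ array, 5.23-fold lower. Probe set 1454200_at read 89.1 on the DX5- array, against 462.5 on the DX5+ array, 5.19-fold lower. These 3 are the probe sets whose DX5- value lay closest to the limit, at 1.17 to 1.74 times it, so their folds depend most on what is taken as background.

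The other two Zeb2 probe sets were brighter and had smaller folds. Probe set 1434298_at read 201 on the DX5- array, against 820 on the DX5+ array, 4.08-fold lower. Probe set 1458941_at, the brightest and so the one that stands for the gene, read 355 on the DX5- array, against 943 on the DX5+ array, 2.65-fold lower. The mean log2 ratio of all 5 was -2.21, or 4.64-fold lower, with an SD of 0.54. That spread is larger than the 0.37 pooled over genes of like brightness, and 9.81% of 1896 genes with 3 or more well-measured probe sets (above both limits) had one as large. Of 411 genes with at least 5 detected probe sets, 4 had all of them at least 2-fold lower in DX5- cells (0.973%), and Zeb2 was one of these. By its brightest probe set Zeb2 was most like Wdfy1, Atp13a2 and Ntmt1.

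Zeb2 is also known in macrophages and other myeloid cells, so their markers stand beside its values. Of 13 macrophage and Kupffer cell genes 5 were above the limit on the DX5- array, against 6 on the DX5+ array, and their summed intensity was 1548 on the DX5- array, against 6193 on the DX5+ array. Of the 6 detected, 5 were called lower in DX5- cells, such as Lyz1 (lysozyme), 6.40-fold, and Mpeg1 (perforin-2), 4.25-fold. The count was 4 with spike-in scaling, and 4 under a detection limit at the 99th percentile. Clec4f, C1qa, C1qb, C1qc, Timd4, Cd163 and Marco, which include the defining Kupffer cell genes, were below the limit on both arrays. Most platelet genes were lower as well, with 8 of 9 called lower (7 with spike-in scaling, 5 under a detection limit at the 99th percentile). Itgb3, of the same list, was called 2.66-fold higher. Platelet genes had a summed intensity of 1714 on the DX5- array, against 6237 on the DX5+ array. The part of such cells in the Zeb2 values was not tested.

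Zeb1, the paralogue of Zeb2, read higher in DX5- cells in 3 of 3 detected probe sets, of which 1 was called. Probe set 1418926_at read 3701 on the DX5- array, against 1903 on the DX5+ array, 1.94-fold higher. Probe set 1446127_at read 2929 on the DX5- array, against 675 on the DX5+ array, 4.34-fold higher. Probe set 1443005_at read 417 on the DX5- array, against 250.2 on the DX5+ array, 1.67-fold higher.

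The fourth Zeb1 probe set, 1420243_at, read 3.1 on the DX5- array, against 19.7 on the DX5+ array; both are below the limits and no fold is given. The 3 detected log2 ratios had an SD of 0.74, against 0.33 pooled over genes of like brightness, and 2.37% of the 1896 genes had a spread as large, so the size of the Zeb1 difference is less certain than its direction on these arrays. Zeb1 lay just inside 2-fold as deposited; it passed 2-fold with median centring and with spike-in scaling, where its log2 ratio reached 1.18. The genes most like Zeb1 were Gbp8, a guanylate-binding protein, Aak1, a kinase, and Mapkapk3, another kinase. T cells are known to use Zeb1, and of 10 detected T cell genes 6 were called higher in DX5- cells, Cd3g (a CD3 chain) the most. With spike-in scaling 7 of 10 were called higher, and under a detection limit at the 99th percentile 5 of 9. The 11 T cell genes with a probe set summed to 26776 on the DX5- array, against 11105 on the DX5+ array, with 9 above the limit on each array and Cd4 below it on both. Most of the difference between these sums came from Cd3g, which read 14036 on the DX5- array, against 1072 on the DX5+ array. Of the detected genes, Cd28 and Cd8b1 read lower on the DX5- array. The part of T cells in the Zeb1 values was not tested.

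The ZEB paralogues lay on opposite sides. The difference between their log2 ratios, Zeb2 minus Zeb1, was -2.37, or 5.16-fold, with the brightest probe set of each, and -2.31 with quantile normalization. The bases before the outermost annotated start of Zeb2 are shown because all 5 of its probe sets were lower together with those of Eomes.
Zeb2 (chr2:45117443-45117692, minus strand): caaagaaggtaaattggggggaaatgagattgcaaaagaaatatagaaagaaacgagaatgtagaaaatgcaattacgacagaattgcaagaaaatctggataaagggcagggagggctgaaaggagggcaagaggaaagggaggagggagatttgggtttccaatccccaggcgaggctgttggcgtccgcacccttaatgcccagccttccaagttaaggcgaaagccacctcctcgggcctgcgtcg
None of the letters searched were in this window or in the other 3 windows listed for Zeb2, of which some overlap.

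**Figure D3:**
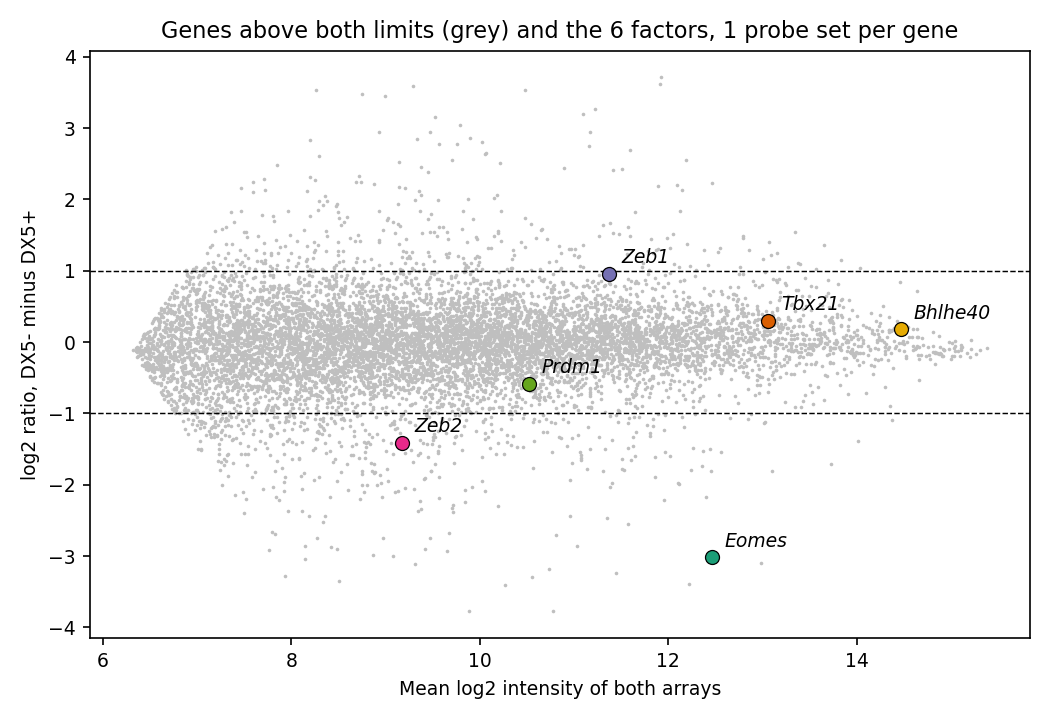
log2 ratio (DX5- minus DX5+) against mean log2 intensity for 9356 genes above both limits, 1 probe set per gene, in grey, with the 6 factors in colour and dashed lines at 2-fold. Eomes lies at the lower edge among bright genes, Zeb2 is below the lower line, Zeb1 is just under the upper line, and Prdm1, Tbx21 and Bhlhe40 lie between the lines.

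Prdm1, which encodes the repressor Blimp1, read slightly lower in DX5- cells, within 2-fold. Its single probe set, 1420425_at, read 1206 on the DX5- array, against 1803 on the DX5+ array, a log2 ratio of -0.58. At least 1522 of the 10640 genes had a ratio as low. The genes most like Prdm1 were Cobll1, Mbtd1 and Zfp451. Blimp1 is best known from plasma cells; of 8 detected B and plasma cell genes 0 were called. Of 6 other detected PRDM genes 0 were called, the widest being Prdm2, which read 4366 on the DX5- array, against 2453 on the DX5+ array and was called higher with spike-in scaling.

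Bhlhe40 was bright and close to level. Its single probe set, 1418025_at, read 24187 on the DX5- array, against 21366.5 on the DX5+ array, 1.13-fold higher in DX5- cells. Its paralogue Bhlhe41 was below the limit on both arrays, and of 5 detected genes of the Hes, Hey and Dec type 0 were called. Odc1 (ornithine decarboxylase), Arf6 (a small GTPase) and Rgs2 (a regulator of G protein signalling) had the most similar intensities.

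Genes around the factors were described from lists written from general knowledge of lymphocyte biology. Of 31 detected genes upstream of the factors or acting with them, 3 were called higher in DX5- cells and 4 lower (2 lower with spike-in scaling). For this and every other list, the marker lists included, the shares among all detected genes are 3.76% called higher and 5.66% called lower. The median log2 ratio of the upstream list was 0.027; the median over all detected genes was -0.016. Tox, an HMG-box factor of innate lymphoid development, read 1503 on the DX5- array, against 376 on the DX5+ array. Il12rb1, a chain of the IL-12 receptor, read 628 on the DX5- array, against 165 on the DX5+ array, and Id3, an inhibitor of E proteins, was 2.53-fold higher in DX5- cells. Lef1, an HMG-box factor of the Wnt pathway, was 3.41-fold lower and Stat5a, which signals for IL-2 and IL-15, 2.33-fold lower. Nfil3, needed for conventional NK cells, read 9359 on the DX5- array, against 8982 on the DX5+ array. Of 17 chromatin partners 1 was called, Ctbp2, a corepressor bound by ZEB proteins, 2.45-fold lower; its paralogue Ctbp1 read 4735 on the DX5- array, against 4264 on the DX5+ array.

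Genes described as promoted by T-bet were split, although Tbx21 itself lay within 2-fold. Of 19 detected, 5 were called higher in DX5- cells and 7 lower. The median log2 ratio was -0.16, or 0.060 with spike-in scaling. At the low end S1pr5, a sphingosine 1-phosphate receptor of tissue exit, read 35.8, below the limit, on the DX5- array, against 1531 on the DX5+ array, at least 20.1-fold lower. Cx3cr1, a chemokine receptor of circulating cells, was 7.33-fold lower and Klrg1, an inhibitory lectin-like receptor, 7.27-fold lower. At the high end Itga1 was at least 12.1-fold higher and Cxcr6, the receptor for CXCL16, 9.62-fold higher.

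Of 12 detected genes described as promoted by Eomes 5 were called lower in DX5- cells and 0 higher (median -0.31). The list includes Itga2, the antigen of DX5 by which the cells were sorted, at least 1.38-fold lower in DX5- cells. It was not among the 5 called, but it enters the median, and its direction follows from the sort. With spike-in scaling the median was -0.095, and under the stricter detection limit (99th percentile) it was -0.84. Cma1, a chymase, read 476 on the DX5- array, against 6468 on the DX5+ array, 13.6-fold lower. Klra8 was 8.55-fold lower, Itgam (CD11b) 5.73-fold, Klra7 3.42-fold and Prf1 2.89-fold lower. Klra genes are near-identical paralogues, and a probe set may bind RNA of several of them, which makes both ratios uncertain. Ifng and Gzmb stand in both the Eomes and the T-bet lists; Ifng read 14891 on the DX5- array, against 11958 on the DX5+ array, and Gzmb 32230 on the DX5- array, against 32238 on the DX5+ array.

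Of 9 detected genes described as promoted by Zeb2, 6 were called lower in DX5- cells and 0 higher (median -2.52); with spike-in scaling 1 was called higher. They were S1pr5, Cma1, Cx3cr1, Klrg1, Itgam and S1pr1 (4.89-fold), several of which stand in the lists above as well. Among NK maturation markers 6 of 9 were called lower, with 1 called higher under spike-in scaling. This is not a second result: S1pr5, Cx3cr1, Klrg1, Itgam and S1pr1 are the same genes, and Klra8 stands in the Eomes list. Cd27, a marker of less mature cells, read 1042 on the DX5- array, against 575 on the DX5+ array. Many genes of these lists were known to differ between resident and circulating NK cells, so they give no independent evidence on the factors.

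Genes described as repressed by ZEB factors numbered 13 detected, of which 4 were called higher in DX5- cells and 1 lower (median 0.20). Cdh1 (E-cadherin), the classical ZEB target of epithelial cells, read 1982 on the DX5- array, against 289 on the DX5+ array, 6.85-fold higher. Il2 read 507 on the DX5- array, against 61.8, below the limit, on the DX5+ array, at least 6.13-fold higher. St14 (matriptase) was 3.58-fold and Epcam, an epithelial adhesion molecule, 3.06-fold higher, and Itgae (CD103) 3.17-fold lower. Under a detection limit at the 99th percentile 10 were detected, Itgae was no longer called and the median was 0.85; with spike-in scaling 6 were called higher and the median was 0.41.

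**Figure D4:**
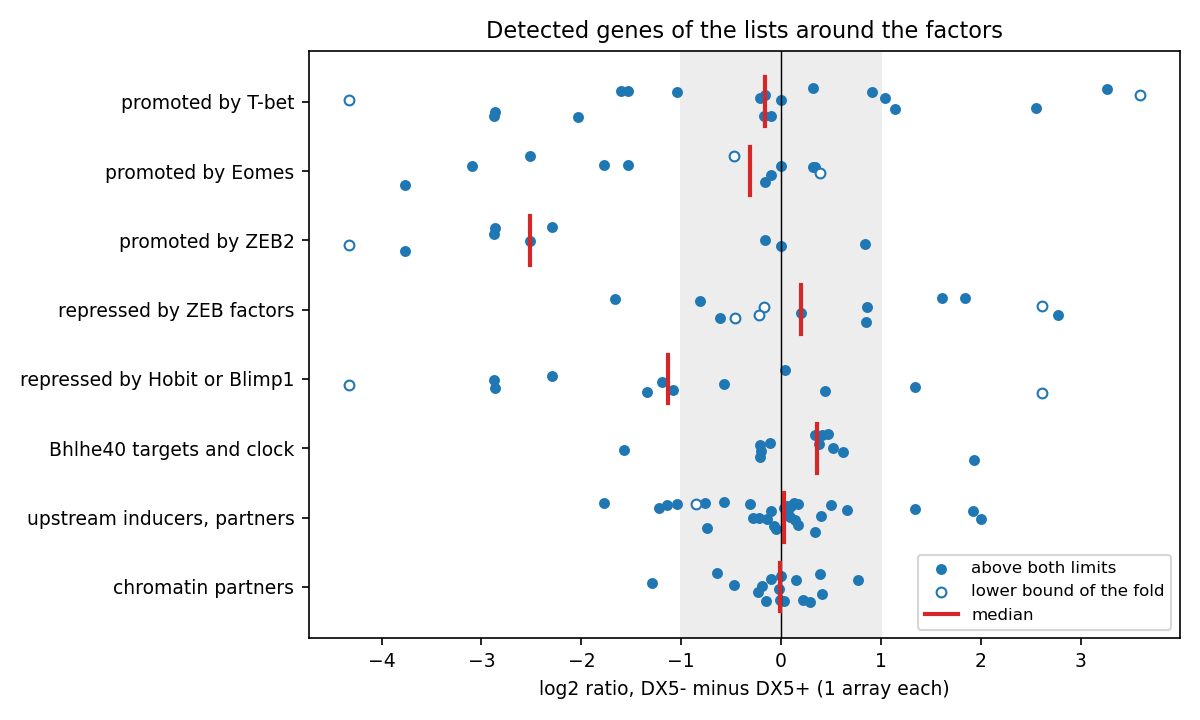
log2 ratio (DX5- minus DX5+) of the detected genes of 8 lists around the factors, 1 point per gene, open where the fold is a lower bound, with the list median as a red line and the range within 2-fold in grey. The list promoted by Zeb2 has its median at -2.52, the list repressed by Hobit or Blimp1 at -1.14, and the lists of upstream genes and chromatin partners near 0.

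Of 13 genes of the ZEB-repressed list with a promoter window, 9 held CAGGTA or CAGGTG (69.2%), against 28.2% of 27025 genes with a window. The list names genes already described as targets of ZEB factors, so this share is not an independent finding. Among the 9 genes with such an E-box, Epcam and Il2 were called higher in DX5- cells. The others were not called: Cldn4, Cldn7 and Krt8 were below both limits, and Cldn1, Ocln, Crb3 and Krt18 lay within 2-fold. Cdh1 and St14, also called higher, were not among the 9. Only 13 of the 18 listed genes had a window, so a gene outside the 9 may have had none to search. The Epcam and Il2 windows are shown because these genes were called, with the E-boxes on either strand in capitals.
Epcam (chr17:87635729-87635978, plus strand): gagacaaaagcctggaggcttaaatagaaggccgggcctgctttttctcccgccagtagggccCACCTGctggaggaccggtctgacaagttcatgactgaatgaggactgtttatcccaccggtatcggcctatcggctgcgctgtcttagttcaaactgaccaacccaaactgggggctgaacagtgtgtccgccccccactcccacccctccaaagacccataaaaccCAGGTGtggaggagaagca
Il2 (chr3:37125955-37126204, minus strand): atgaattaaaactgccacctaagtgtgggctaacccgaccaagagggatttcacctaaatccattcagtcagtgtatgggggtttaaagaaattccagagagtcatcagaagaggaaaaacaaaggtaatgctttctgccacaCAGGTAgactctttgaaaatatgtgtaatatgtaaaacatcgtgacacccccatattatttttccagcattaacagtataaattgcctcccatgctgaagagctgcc
The Epcam window held 2 E-boxes, starting 187 and 19 bases before the start, and the Il2 window held 1, starting 107 bases before it. Of 9 genes with a window in the list promoted by Zeb2, 1 held such an E-box, Gzma. None of the 16 genes with a window in the T-bet list, and none of the 12 in the Eomes list, held GGTGTGA, which 3.84% of all genes did. A match or its absence in this window says nothing about binding.

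Of 12 detected genes described as repressed by Hobit or Blimp1 in resident lymphocytes, 7 were called lower in DX5- cells and 2 higher (median -1.14). Beside S1pr5, Cx3cr1, Klrg1 and S1pr1, they included Klf2, which drives S1pr1 in lymphocytes and read 3039 on the DX5- array, against 6943 on the DX5+ array. Ccr7 and Bach2 were lower too, and Il2 and Id3 higher. With spike-in scaling the lower genes numbered 5.

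Of 12 detected Bhlhe40 targets and clock genes 10 lay within 2-fold, with a median of 0.36. Csf2, the GM-CSF gene that Bhlhe40 promotes in T cells, was 3.81-fold higher in DX5- cells, and Il1b, a cytokine gene of myeloid cells, 2.98-fold lower. Il10, which Bhlhe40 represses in T cells, read 163 on the DX5- array, against 129 on the DX5+ array. CACGTG was in the windows of 4 of 12 genes of this list with a window (33.3%), against 6.86% of all genes. This list too names genes already described as targets, so that share is not an independent finding.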

How the data were processed

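Gene expression was measured on Affymetrix mouse arrays, 1 per population, grouped by the labelled cell type. The authors made the deposited intensity values with MAS5, per the submitters' processing notes; its version and settings were not stated in the sources used here. The table held no detection calls, and precision is limited by the number of arrays.

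Probe sets were named from the platform annotation (34958 with 1 gene symbol, 932 with several, which name no gene), with symbols checked by gene identifier in RefSeq GRCm38.p6 (34754 matched, 0 renamed). No offset or further scaling was applied before log2. The detection limit left out Crybg genes, which are not lens genes. A gene below it on both arrays was left out; below it on 1 array, its value was set to that limit and the fold written as "at least". Promoter windows matched 4 of the 7 members; they come from RefSeq GRCm38.p6, while the intensities have no genome build.

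No test was possible, so counts past 2-fold are to be read beside the shares of all detected genes past it. The members and lists were chosen with earlier results of these data known. Named genes were all member probe sets, up to 5 genes per list at least 2-fold apart with the largest ratios, and the 3 genes nearest each member. Nfil3, Ctbp1, Ifng, Gzmb, Gzma, Cd27, Il10, Klf2, Ccr7, Bach2, Prdm2, Tbx6, Tbx19 and the marker genes were named after their values were seen. The other ZEB-repressed genes with an E-box were named as well. Alternatives were 4 scalings or offsets, 3 detection limits and 2 rules for probe sets. The steps were tested on simulated data, with noise set only by the SD between probe sets of a gene. Of 50 genes with a true 2-fold change 17 passed 2-fold in the right direction. The number was 42 of 50 with a 3-fold change and 48 of 50 with a 4-fold change. A gene within 2-fold is therefore not shown to be unchanged. Python 3.11.15, pandas 2.3.3 and numpy 2.4.6 were used.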

Additional observations from a re-analysis of the deposited data

How the results depend on the processing

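No paired analysis was possible because each population had 1 array, and no replicate could be left out. For a ratio, a move was judged against the 0.34 SD between probe sets of a gene. None of the 6 factors changed sign under any alternative run: the log2 ratio ranged from -3.02 to -2.80 for Eomes, 0.24 to 0.52 for Tbx21, 0.29 to 1.18 for Zeb1, -2.21 to -1.19 for Zeb2, -0.58 to -0.36 for Prdm1 and 0.18 to 0.40 for Bhlhe40. With the mean over all probe sets Zeb1 was 0.29, because the probe set below both limits enters that mean, and Zeb2 was -2.21. The number of factors at least 2-fold higher was 1 (Zeb1) with median centring and 1 with spike-in scaling, with 2 of their probe sets past 2-fold in each; the number at least 2-fold lower was 2 in all alternatives. Over all genes, 698 were higher and 393 lower with spike-in scaling, and 1890 higher and 2840 lower with no detection limit, where genes near background enter. The Zeb2 probe sets near the limit moved most: 1454200_at had a log2 ratio of -1.88 with an offset of 50 units and -1.72 under the 99th percentile limit (140.7 units on the DX5- array), and 1422748_at -2.40 and -2.48. Intensity close to background thus limits the size, and 1 array per population the weight, of each difference.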
